A study of Bos taurus with 20 samples.

Results

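The aryl hydrocarbon receptor pathway was described in bovine neck muscle through 6 genes. These were the receptor AHR, its partner ARNT, and 4 genes that the receptor is known to switch on, CYP1A1, CYP1B1, TIPARP and NQO1. They were found on the array by gene name, or by the symbol in a probe's description, and were represented by 8 of its 21475 probes, with 2 probes each for AHR and ARNT and 1 for each other gene. All 8 were among the 15438 probes bright enough to test, and 5 of the 8 were well above background on all 20 arrays. The members were chosen by measured values of these arrays: the set was selected with the difference of CYP1A1 between treated and control animals already known. The differences of all members by treatment are given here as a description with no test. Storage was not used to choose them and was tested.

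The muscle came from 10 animals at a slaughterhouse and was kept under vacuum at 4 °C. Of these, 5 were controls (K3, K6, K8, K9 and K10) and 5 were treated (DE27, DE29, DE30, DE31 and DE32) with both dexamethasone, a synthetic glucocorticoid, and estradiol, an oestrogen. The daily oral dose of dexamethasone was 0.4 mg per animal over 31 days, and estradiol was injected into muscle 6 times at 5 mg per animal and week. Each animal gave 1 sample at day 0 and 1 at day 14 of storage, so the 4 groups (control and treated, day 0 and day 14) hold 5 arrays each. Both agents were always given together, so their separate effects cannot be told apart.

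AHR is a transcription factor that waits in the cytoplasm, bound to the HSP90 chaperone and co-chaperones, until a ligand such as a dioxin, a plant indole or a tryptophan metabolite enters the cell. It then moves to the nucleus, pairs with ARNT and binds response elements near its target genes. CYP1A1 is the classic target, a cytochrome P450 that oxidises aromatic compounds and also hydroxylates oestradiol. Its induction is widely used as a readout of receptor activity, mostly in liver, lung, skin and endothelium rather than in muscle fibres. TIPARP and the AHR repressor AHRR are targets that feed back on the receptor.

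Of 11 tested skeletal muscle markers, 11 were well above background on all arrays. The 75th percentile of processed signal, a measure of how bright an array is, ran from 657 to 949 at day 0 and from 278 to 534 at day 14, so the stored samples were dimmer. After each array was centred on this percentile, the median probe was 0.10 higher at day 14 on the log2 scale. That median was 0.04 over the 11411 probes well above background on all arrays and 0.35 over the 4027 dimmer ones. The arrays were on 6 slides and were scanned on 3 days. A slide seldom held both storage days, with 1 slide holding both for control animals and 1 for treated animals, so storage and slide can barely be told apart. All levels below are log2 signal after this centring, and a level of one probe cannot be set against that of another.

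CYP1A1 transcript was lower in every treated animal than in any control animal, before and after storage. At day 0 the control arrays read 9.96 in K3, 8.41 in K6, 10.16 in K8, 9.10 in K9 and 10.20 in K10. The treated arrays of that day read 4.68 in DE27, 7.58 in DE29, 6.33 in DE30, 4.03 in DE31 and 6.25 in DE32. The highest treated animal, DE29, thus stayed below the lowest control animal, K6, by less than a log2 unit, whereas DE31 and DE27 lay far lower. The group means were 9.57 ± 0.79 (SD, n = 5) and 5.77 ± 1.42 (SD, n = 5), a difference of -3.79 ± 0.63 (SE), or 13.9-fold lower in treated muscle. Both means come from spots well above background on all 20 arrays, and the probe's 2 spots differed by a median of 0.15 within an array.

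At day 14 the control arrays read 9.92 in K3, 8.73 in K6, 9.46 in K8, 11.87 in K9 and 10.29 in K10. The treated arrays read 6.12 in DE27, 6.41 in DE29, 7.30 in DE30, 5.24 in DE31 and 5.03 in DE32. The groups again did not overlap, K6 was again the lowest control, and the highest treated animal was now DE30. The means were 10.05 ± 1.17 and 6.02 ± 0.92 (SD, n = 5 each), which is -4.03 ± 0.57 (SE), or 16.4-fold lower. Of all tested probes, 5.88% did not overlap between treatments at day 0 and 2.29% at day 14. Ranked by log2 difference, CYP1A1 was number 3 from the lowest at day 0 and number 1 at day 14 among 15438 probes. That rank led to its choice and carries no weight of its own.

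**Figure D1:**
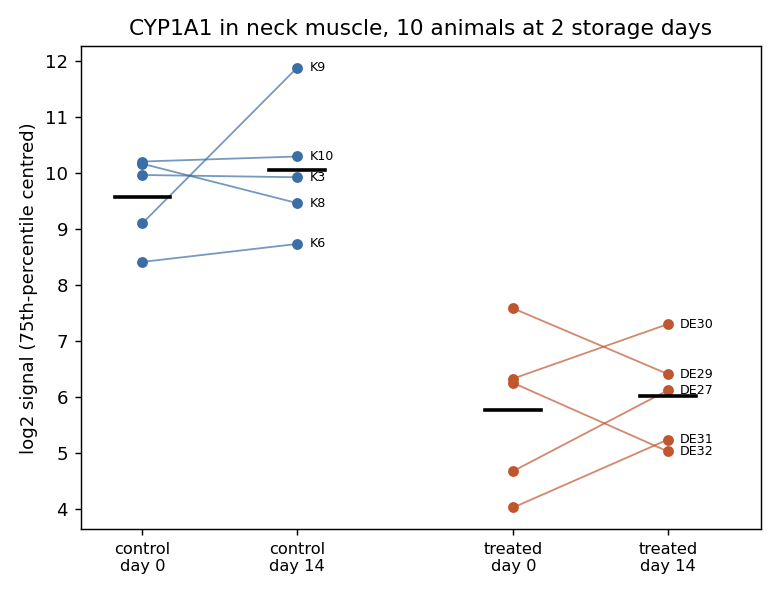
CYP1A1 signal (log2, vertical axis) of each animal in the 4 groups, with a line joining the day 0 and day 14 arrays of 1 animal and a black bar at each group mean. The control animals (blue) lie between 8.41 and 11.87 and the treated animals (orange) between 4.03 and 7.58, with no overlap on either day.

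Vessel cells are a known site of CYP1A1 expression. Of 12 endothelial markers, all tested, 0 passed by treatment on either day, and their median difference was 0.27 at day 0 and -0.07 at day 14. Of all tested probes 2.45% passed at day 0 and 0.0713% at day 14, so this count is near the background. The part of vessel cells in the CYP1A1 difference was not tested.

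The difference by treatment held its sign on each slide that carried both treatments, but its size varied. At day 0 it was -1.61 on slide 1, -4.45 on slide 3 and -5.52 on slide 6, with 1 or 2 arrays per treatment on each. At day 14 it was -2.46 on slide 2, -5.60 on slide 4 and -5.26 on slide 5. The smaller values, on slides 1 and 2, are those of the first scan day and involve K6 and DE29, a low control and a high treated animal. Leaving out any 1 animal gave -4.24 to -3.36 at day 0 and -4.37 to -3.58 at day 14. With background correction by the normexp method, which compresses low signals, the day 14 difference was -2.35.

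Animals of the same group differed widely in CYP1A1. From the lowest to the highest array, the range was 3.45-fold in controls and 11.7-fold in treated animals at day 0, and 8.86-fold and 4.81-fold at day 14. The within-group SD, pooled over the 4 groups, was 1.1 for CYP1A1 against a median of 0.41 over all tested probes, and 97.9% of tested probes had a smaller one. Day 14 did not rank the animals as day 0 had: K9 was next to lowest among controls at day 0 and highest at day 14, and DE32 was in the middle of the treated animals at day 0 and lowest at day 14.

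Storage did not change CYP1A1 by a detectable amount. Within an animal, day 14 minus day 0 ran from -0.71 in K8 to 2.78 in K9 among controls, and from -1.22 in DE32 to 1.44 in DE27 among treated animals. In total 6 of 10 animals were higher at day 14 and 4 lower. The fits of storage held no animal term, so the arrays of an animal entered them unpaired. The mean change was 0.49 ± 0.54 (SE) in controls, with a 95% interval from -0.70 to 1.68 (limma adjusted p = 0.5). In treated animals it was 0.25 ± 0.64, with an interval from -1.16 to 1.66 and an adjusted p of 0.799 from limma. Over all animals, with treatment as a covariate, it was 0.37 ± 0.44 (limma adjusted p = 0.495). The treatment difference at day 14 minus that at day 0 was -0.24 ± 0.90, with an interval from -2.13 to 1.65 (limma adjusted p = 0.999), so a several-fold shift in either direction would not have been seen. Without K9 the change in controls was -0.08. With slide as a block the change over all animals was -0.12 ± 0.84, and after normexp correction the change in treated animals was 0.88 ± 0.35 and passed (limma adjusted p = 0.0439).

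From the highest to the lowest mean, CYP1A1 ran control day 14, control day 0, treated day 14 and treated day 0. Neighbours of the same treatment in this order did not differ beyond the spread between animals. The means of control day 0 (9.57) and treated day 14 (6.02) lay further apart than the range of either group (1.79 and 2.27). Their nearest arrays, at 8.41 and 7.30, lay closer together than either range.

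The probes whose profile over the 20 arrays was most like that of CYP1A1 were found by the mean absolute difference in log2 signal after each probe's own mean was subtracted, among 15427 probes. The 5 nearest named genes were PER1 (0.86), a circadian clock repressor; RGS1 (0.90), a regulator of G protein signalling; ARMC12 (1.02); GADD45G (1.03), a stress and growth arrest gene; and HES6 (1.05), a transcription factor of the Hairy family. A flat profile would give 1.96 and the median probe gave 1.99. The PER1 mean was 15 in controls and 12.11 in treated animals on day 0, and 15.57 and 12.62 on day 14. RGS1 had means of 9.33 and 6.03 at day 0, and of 9.48 and 5.82 at day 14. In treated muscle ARMC12 was well above background on no array, and HES6 on 0 arrays at day 0 and 1 at day 14, so their levels there are bounds. Of the other members, TIPARP was nearest to CYP1A1 with 1.68, followed by the brighter ARNT probe with 1.84. The AHR probes gave 2.27 and 2.41, more than a flat profile. These values are descriptions and share the treatment contrast that singled out CYP1A1.

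**Figure D2:**
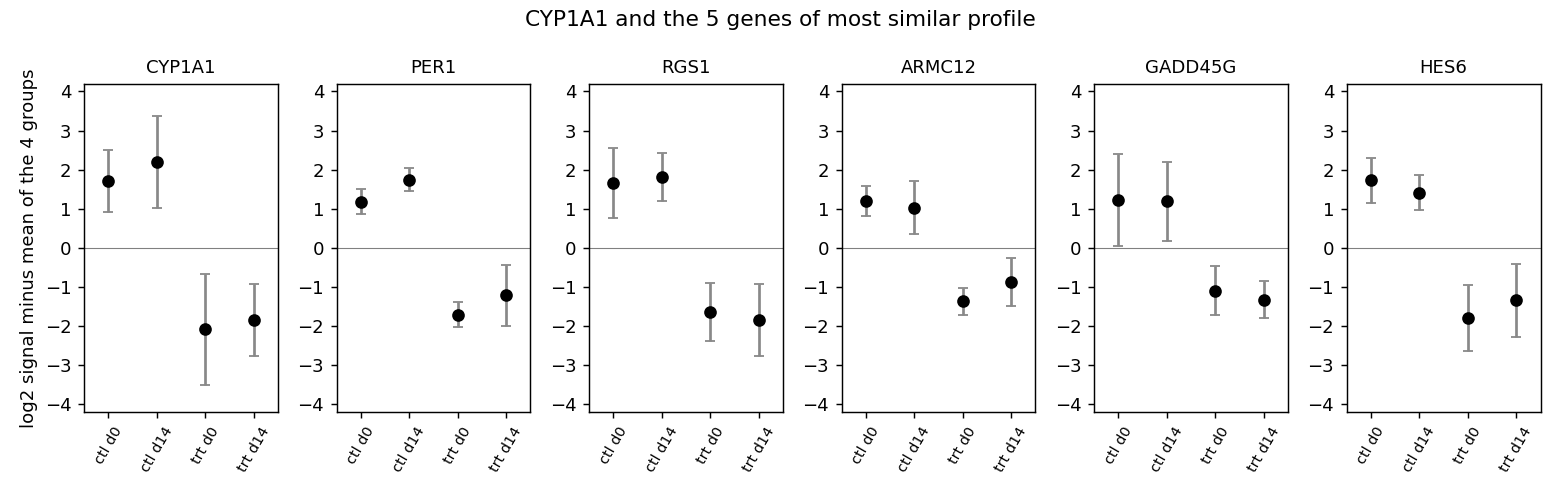
Group means of log2 signal, each minus the mean of the 4 groups, with bars of 1 SD (n = 5 animals), for CYP1A1 and the 5 named genes of most similar profile; ctl is control, trt is treated, d0 and d14 are the storage days. In each panel both control groups lie above both treated groups, and the SDs of CYP1A1 run from 0.79 to 1.42.

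The receptor itself was read by a pair of probes, and both were higher in treated animals at day 0, opposite in sign to CYP1A1. With the brighter probe (A_73_107359), control arrays at day 0 read 8.56 in K3, 8.17 in K6, 8.07 in K8, 8.05 in K9 and 7.91 in K10. The treated arrays read 8.96 in DE27, 9.10 in DE29, 8.51 in DE30, 8.90 in DE31 and 8.84 in DE32. The groups met at 1 point only, where DE30 lay just below K3. The means were 8.15 ± 0.25 and 8.86 ± 0.22 (SD, n = 5 each), a difference of 0.71 ± 0.16 (SE), or 1.63-fold higher. The dimmer probe (A_73_118386) gave 3.60 ± 0.27 and 4.61 ± 0.20 with no overlap, which is 1.01 ± 0.16 higher. It was well above background on 3 of 5 control arrays and 5 of 5 treated arrays. After normexp correction its difference was 0.31.

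At day 14 the AHR groups overlapped with both probes. The brighter probe read 9.17 in K3, 9.19 in K6, 8.42 in K8, 9.44 in K9 and 8.32 in K10, and 8.75 in DE27, 10.28 in DE29, 9.32 in DE30, 9.06 in DE31 and 9.83 in DE32. The treated animals spread over a wider range than at day 0, and DE27 fell among the controls. The difference was 0.54 ± 0.32 with this probe and 0.79 ± 0.41 with the dimmer one, which gave 0.45 after normexp correction. On slide 4 it had the other sign, -0.24 and -0.13, with 1 control and 2 treated arrays.

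The AHR signal was higher after storage, and how far depended on the probe and on the scaling. Over all animals the brighter probe was 0.67 ± 0.18 higher at day 14 (limma adjusted p = 0.00421), with 9 of 10 animals higher, and the dimmer probe was 1.40 ± 0.22 higher (limma adjusted p = 3.52e-05), with 10 of 10 higher. In controls alone the changes were 0.76 ± 0.24 and 1.51 ± 0.31 (limma adjusted p = 0.0289 and 0.00425). In treated animals they were 0.59 ± 0.28 and 1.30 ± 0.31 (limma adjusted p = 0.128 and 0.0105). With slide as a block, the change over all animals was 0.62 ± 0.36 and 1.69 ± 0.43 (limma adjusted p = 0.253 and 0.0182), so only the dimmer probe still passed. With arrays centred on the median, the brighter probe changed by 0.36 over all animals and 0.47 in controls and lost both calls (limma adjusted p = 0.0703 and 0.105). The call of the brighter probe in controls was also lost without K3 (limma adjusted p = 0.0551), K6 (0.0938) or K9 (0.132), and that of the dimmer probe in treated animals without DE32 (0.0622) and in the authors' series table (0.86, adjusted p = 0.0572), while the brighter probe passed there without DE27 (0.0491). The storage change did not differ detectably between treatments, at -0.17 ± 0.37 and -0.22 ± 0.46 (limma adjusted p = 0.999 for both). The dimmer probe belongs to the class of probes whose median also rose, and the part of array brightness in its change was not tested.

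ARNT, the partner through which AHR binds DNA, gave opposite answers with its 2 probes. The brighter probe (A_73_104072) read 7.78 in K3, 7.61 in K6, 7.37 in K8, 7.31 in K9 and 7.31 in K10 at day 0. In treated animals it read 7.0 in DE27, 7.15 in DE29, 6.82 in DE30, 7.25 in DE31 and 7.20 in DE32. All treated arrays lay below all control arrays on that day, by a small margin. The difference between the means, 7.48 ± 0.21 and 7.08 ± 0.17 (SD, n = 5 each), was -0.39 ± 0.15 (SE). At day 14 the means were 6.68 ± 0.07 and 6.55 ± 0.46 and the groups overlapped. The dim probe (A_73_110146) gave a difference of -0.34 ± 0.39 at day 0 and 0.36 ± 0.27 at day 14.

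During storage the brighter ARNT probe fell by 0.66 on the log2 scale (SE 0.13, limma adjusted p = 0.000245) over all animals, with 9 of 10 lower at day 14. The dim probe rose by 1.40 ± 0.25 (limma adjusted p = 0.00011), with 10 of 10 higher. The probes thus moved apart. The dim probe was well above background on 3 control and 1 treated array of 5 at day 0 and on 4 of each at day 14, and its 2 spots differed by a median of 0.76. The brighter probe was well above background on all arrays. It was 0.19 higher at day 14 after normexp correction, and with slide as a block it was -0.66 ± 0.25 (limma adjusted p = 0.0801). The dim probe stayed higher with slide as a block, at 1.76 ± 0.44 (limma adjusted p = 0.0155), and without K3 its call in controls was lost (limma adjusted p = 0.0835). That call was also lost with quantile normalization (0.65, limma adjusted p = 0.141), with median centring (0.76, 0.0603) and in the authors' series table (0.62, 0.317), where it was lost in treated animals too (1.17, 0.0876). No direction for ARNT can be drawn from this pair.

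**Figure D3:**
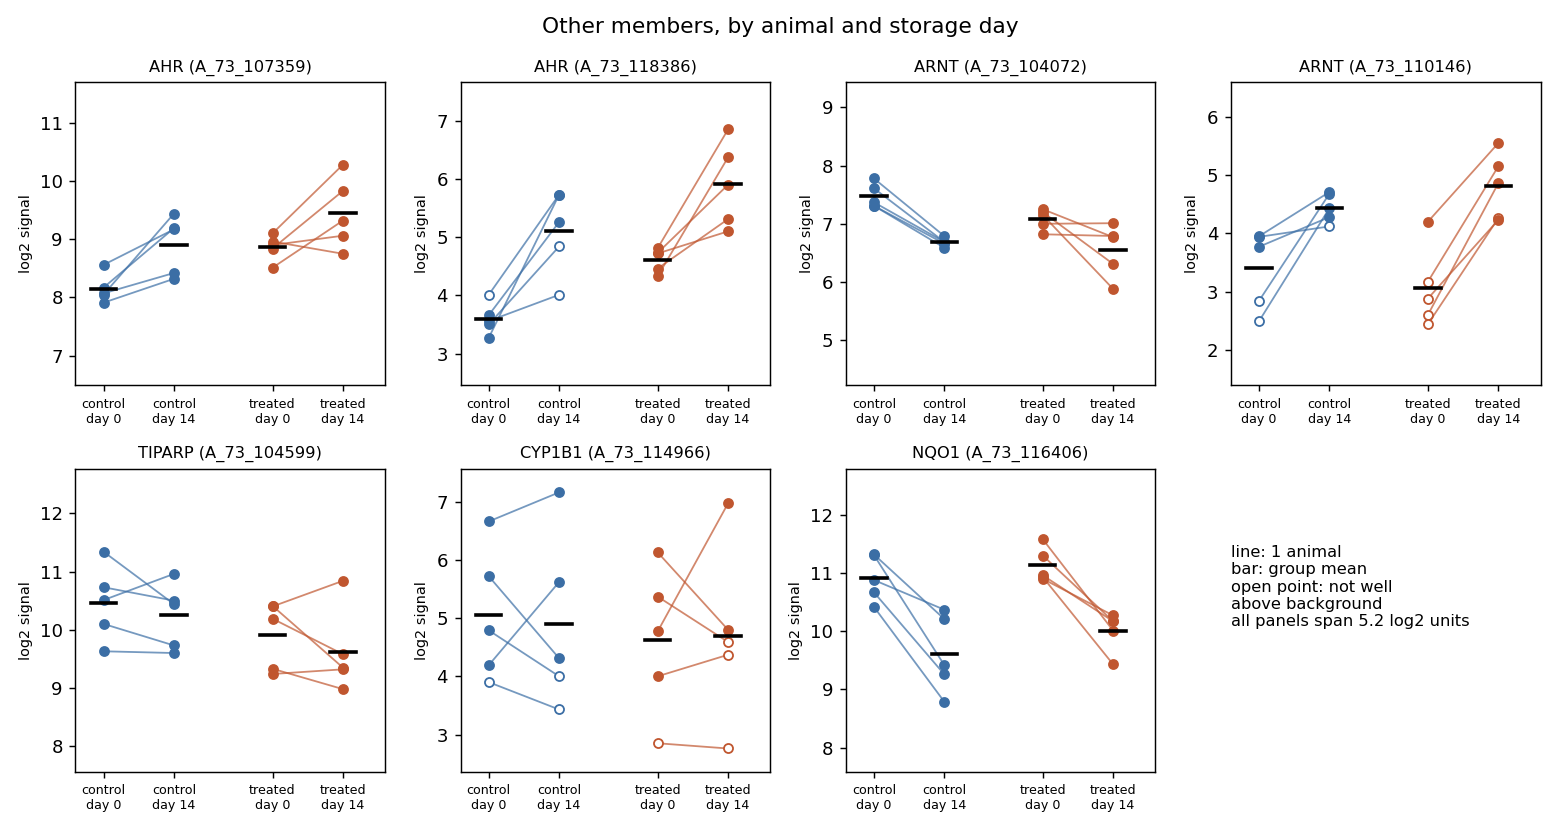
Log2 signal of the other 7 member probes for each animal in the 4 groups, drawn as in the plot of CYP1A1 by animal, with every panel spanning the same number of log2 units and open points for spots not well above background. AHR rises along most lines with both probes, the ARNT probes move in opposite directions, NQO1 falls along every line, and TIPARP and CYP1B1 have lines in both directions.

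TIPARP, a mono-ADP-ribosyltransferase that is induced by AHR and in turn restrains it, was a little lower in treated animals with overlapping groups. Its control arrays at day 0 read 10.10 in K3, 9.63 in K6, 10.51 in K8, 10.73 in K9 and 11.34 in K10. The treated arrays read 10.40 in DE27, 10.19 in DE29, 9.24 in DE30, 10.41 in DE31 and 9.33 in DE32. A pair of treated animals, DE30 and DE32, lay below every control and the other three lay among them. The differences were -0.55 ± 0.35 (SE) at day 0 and -0.63 ± 0.37 at day 14. Both were smaller than the range within any of the 4 groups, which was 1.17 to 1.86. On the slides of the first scan day TIPARP had the other sign, at 0.32 on slide 1 (day 0) and 0.61 on slide 2 (day 14). It was -0.80 on slide 3 and -0.94 on slide 6 at day 0, and -1.17 on slide 4 and -1.46 on slide 5 at day 14. Storage changed it by -0.26 ± 0.26 over all animals (limma adjusted p = 0.408), with 7 of 10 lower.

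CYP1B1, a related P450 that hydroxylates oestradiol at another position than CYP1A1, was dim, and its arrays were far apart. It read 3.90 in K3, 4.19 in K6, 6.66 in K8, 5.72 in K9 and 4.79 in K10 at day 0, and 2.85 in DE27, 4.0 in DE29, 5.37 in DE30, 6.13 in DE31 and 4.77 in DE32. The groups covered almost the same range. Its differences by treatment were -0.43 ± 0.66 at day 0 and -0.20 ± 0.80 at day 14. The interval at day 0 ran from -1.88 to 1.03, which is wide. With signal this close to background, how large a fall the probe could show was not tested. The lowest array of each of the 4 groups was not well above background (K3 and DE27 on both days), so no range is given as a fold. The within-group SD of 1.36 includes those arrays. Storage changed it by -0.04 ± 0.54 (limma adjusted p = 0.958), and it was 1.0 ± 0.26 higher after normexp correction (limma adjusted p = 0.00165). Well above background arrays numbered 4 of 5 in each group at day 0, and 3 control and 2 treated arrays at day 14.

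CYP1A2, the gene next to CYP1A1 in the bovine annotation and mainly a liver enzyme, was well above background on 0 of 20 arrays and was not tested. No probe was named AHRR.

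NQO1, a quinone reductase switched on by both AHR and the oxidative stress factor NRF2, did not follow CYP1A1 by treatment. Its control arrays at day 0 read 11.32 in K3, 11.31 in K6, 10.67 in K8, 10.42 in K9 and 10.88 in K10. The treated arrays read 10.90 in DE27, 11.30 in DE29, 10.96 in DE30, 11.58 in DE31 and 10.93 in DE32. The groups overlapped: DE31 lay above every control and the other 4 treated animals lay within the control range. The differences were 0.22 ± 0.21 (SE) at day 0 and 0.40 ± 0.31 at day 14.

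NQO1 was lower after storage in every animal, with a change of -1.88 in K6 to -0.51 in K10 among controls and of -1.57 in DE31 to -0.63 in DE27 among treated animals. At day 14 it read 10.21 in K3, 9.42 in K6, 9.26 in K8, 8.79 in K9 and 10.37 in K10, and 10.27 in DE27, 10.17 in DE29, 10.17 in DE30, 10.01 in DE31 and 9.43 in DE32. Neither treatment's day 14 arrays overlapped its day 0 arrays, as was so for 25.0% of tested probes in controls and 20.4% in treated animals. The change was -1.30 ± 0.31 in controls (limma adjusted p = 0.00835), -1.12 ± 0.21 in treated animals (0.0035) and -1.21 ± 0.19 over all animals (2.78e-05), or 2.32-fold lower. The change did not differ detectably between treatments, at 0.18 ± 0.39 (limma adjusted p = 0.999). With slide as a block it was -0.89 ± 0.35 (limma adjusted p = 0.0983). On slide 6, which held both days of control animals, it was -1.14 from 3 arrays, and on slide 5, which held both days of a treated animal, it was -1.50 from 2 arrays.

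**Figure D4:**
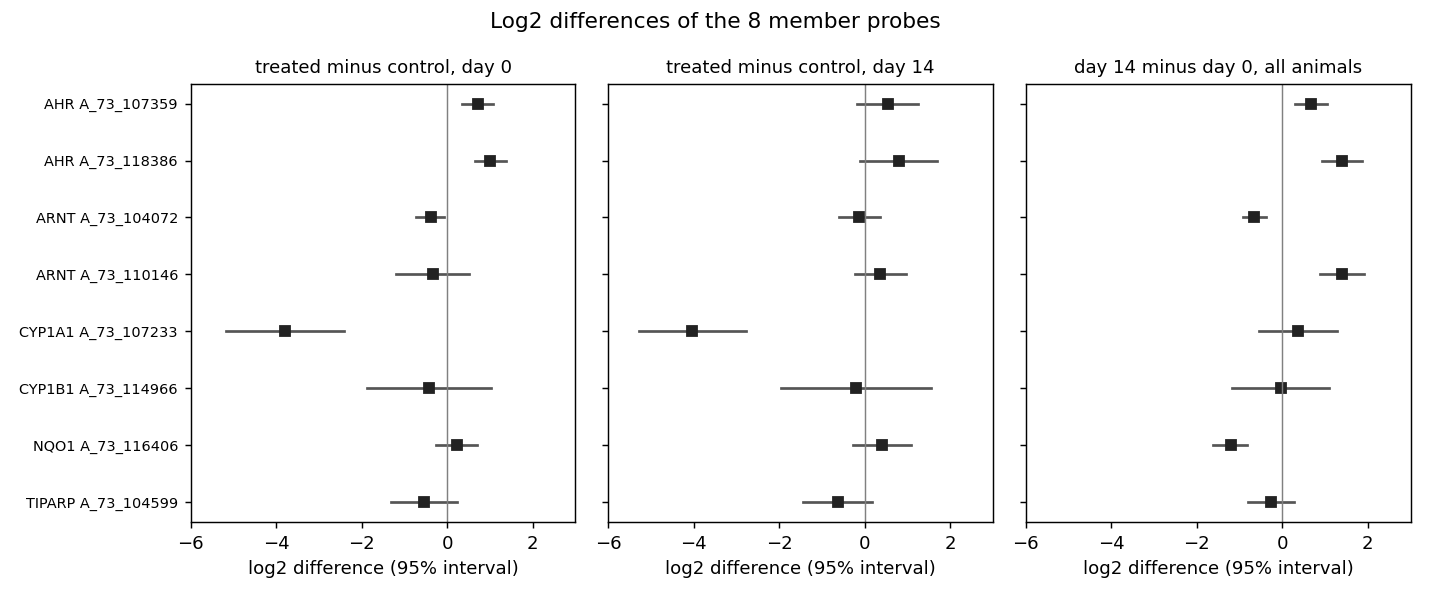
Log2 differences of the 8 member probes with 95% intervals from limma, for treated minus control at day 0 and at day 14 and for day 14 minus day 0 over all animals. CYP1A1 stands at -3.79 and -4.03 by treatment, while every other member lies between -0.63 and 1.01. By storage the AHR probes lie at 0.67 and 1.40 and NQO1 at -1.21. The intervals by treatment are a description with no test.

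Over all animals, 5 of the 8 member probes passed the storage test, 3 higher (both AHR probes and the dim ARNT probe) and 2 lower (NQO1 and the brighter ARNT probe). Of all tested probes 54.5% passed, 31.2% higher and 23.3% lower, so this count is near the background. In controls 5 of 8 passed against 39.1% of all probes, and in treated animals 3 of 8 against 29.6%. Of the probes that passed over all animals 57.3% were higher at day 14, a share that was 31.5% with centring on the median, 47.2% with quantile normalization, 75.8% after normexp correction and 47.4% in the authors' series table. With slide as a block 2 members passed over all animals and 0 within either treatment. The interaction of treatment and storage was called for 0 of 8 members and 0 of 15438 probes by limma (0.0%), with 534 probes at an unadjusted p under 0.05.

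Other genes of the pathway were followed in 5 lists with 1 probe per gene, 55 tested genes in all. By treatment at day 0, 4 of these 55 passed (7.27%), against 2.45% of all probes. The lists were chosen with earlier results of these data known. These shares and the p-values by treatment are therefore a description and do not test the lists. IDO1, the enzyme that opens the kynurenine route from tryptophan to natural AHR ligands, was the largest change. Its control arrays at day 0 ran from 5.23 to 7.16 and its treated arrays from 7.98 to 9.12, a rise of 2.36 ± 0.36 (limma adjusted p = 0.0111), or 5.15-fold higher. It was the only one of 7 tested genes of the kynurenine list to pass. Its difference at day 14 was 2.27 ± 0.38 (limma adjusted p = 0.0803). HMOX1, the haem oxygenase induced by NRF2, rose by 1.25 ± 0.25 (limma adjusted p = 0.0271), and NQO2, the paralogue of NQO1, rose by 0.60 ± 0.13 (limma adjusted p = 0.0387). They were 2 of 18 tested genes of the NRF2 list, whose median difference was 0.25 against -0.01 for all probes.

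XDH, a xanthine dehydrogenase induced by AHR ligands in mouse liver, was the only gene below 0 to pass at day 0, at -0.85 ± 0.19 (limma adjusted p = 0.0408). Its other 2 probes gave -1.18 ± 0.24 (limma adjusted p = 0.0304) and -1.28 ± 0.50 (limma adjusted p = 0.219). At day 14 the 3 probes gave -1.21, -2.02 and -1.46, and none passed. It was 1 of 13 tested genes of the list of AHR battery and P450 electron transfer genes, whose median was 0.09. Of the receptor complex 0 of 9 tested genes passed, with 2 at an unadjusted p under 0.05. The smallest p there was that of BMAL1, a clock factor related to ARNT, at 0.77 ± 0.22 (limma adjusted p = 0.0895). Of the oestrogen metabolism list 0 of 8 passed, with 2 at an unadjusted p under 0.05, and HSD17B1, which makes oestradiol from oestrone, was at -0.42 ± 0.16 (limma adjusted p = 0.204).

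The IDO1 call at day 0 held without any 1 animal. The XDH call was lost without any 1 animal except K3 (limma adjusted p = 0.0536 to 0.104). That of NQO2 was lost without any 1 except K8 and DE27 (limma adjusted p = 0.065 to 0.0945), and that of HMOX1 without K8, K9, DE29, DE30, DE31 or DE32 (0.0522 to 0.0746). The calls of HMOX1 and NQO2 were lost with slide as a block (limma adjusted p = 0.0712 and 0.0813), and 2 of the 4 calls, IDO1 and XDH, held. In the authors' series table XDH (0.0781) and NQO2 (0.0518) did not pass, nor did they with no filter on dim probes (0.0696 and 0.0789), and XDH did not after normexp correction (0.0552). At day 14, 0 of the 55 genes passed by limma, against 0.0713% of all probes, with the lowest p of each list in HIF1A (-0.69 ± 0.21, adjusted p = 0.298), XDH, IDO1, HSD17B1 (-0.59 ± 0.26, 0.462) and MAFG (0.87 ± 0.16, 0.106). By treatment, 2.45% of all probes were called at day 0 and 0.0713% at day 14. The 9 marker lists of muscle, vessel, fat, connective tissue, immune, blood and epithelial cells held no gene called on either day, near those shares. Their part in the differences above was not tested, and fewer cells of a type cannot be told apart from less RNA per cell.

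By storage, 28 of the 55 genes passed over all animals (50.9%), 11 higher and 17 lower, near the 54.5% of all probes. In the receptor complex 6 of 9 genes were below 0 and 4 passed lower. Those 4 were BMAL1 (-1.13 ± 0.20), both forms of the HSP90 chaperone, HSP90AB1 (-1.01 ± 0.19) and HSP90AA1 (-0.49 ± 0.18), and the co-chaperone PTGES3 (-0.40 ± 0.13). The coactivator NCOA2 rose by 1.59 ± 0.17 (limma adjusted p = 4.44e-07), from 5.18 and 5.38 in the day 0 groups to 6.69 and 7.06. Of 13 AHR battery and electron transfer genes, ALDH3A1 (1.74 ± 0.68), XDH (0.57 ± 0.18), CYB5A (0.37 ± 0.12) and POR (0.35 ± 0.14), which hands electrons to P450 enzymes, rose. The other 2 XDH probes rose by 1.04 ± 0.35 and 1.90 ± 0.32 (limma adjusted p = 0.0172 and 6.34e-05). GSTA1 (-1.24 ± 0.37), CYB5R1 (-0.80 ± 0.18) and SELENBP1 (-0.42 ± 0.11) fell.

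Of 7 kynurenine genes, HAAO (1.07 ± 0.29), IDO1 (0.95 ± 0.27) and AFMID (0.55 ± 0.13) rose, while the aminotransferases AADAT (-1.84 ± 0.27, 3.58-fold lower) and KYAT3 (-0.85 ± 0.25) fell. Of 8 oestrogen metabolism genes, HSD17B1 (0.71 ± 0.15) and HSD17B14 (0.55 ± 0.18) rose, and HSD17B4 (-0.50 ± 0.12), HSD17B8 (-0.47 ± 0.17) and HSD17B12 (-0.47 ± 0.17) fell. HAAO was well above background on 1 or 2 of 5 arrays in each group, and POR and HSD17B14 on 2 of 5 control arrays at day 14, so their changes rest on signal near background. Of 18 NRF2 list genes 5 passed lower and 1 higher, with 11 of the 18 below 0 and 7 above. Among these ME1, which makes NADPH, was at -1.70 ± 0.24, TALDO1 at -0.65 ± 0.15, the thioredoxin TXN at -0.51 ± 0.11 and MAFK at -0.45 ± 0.12, and TKT was at 0.47 ± 0.18. The storage change differed between treatments for 0 of the 55 genes by limma, of which 1 had an unadjusted p under 0.05. That was MAFG, at 0.99 ± 0.29 (limma adjusted p = 0.999).

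With slide as a block 1 of the 28 storage calls held, NCOA2. Those of ALDH3A1 and POR were also lost with animal as a block (limma adjusted p = 0.0613 and 0.0668). Of the 27 named calls, 16 were lost under at least 1 of 4 other scalings or background corrections, with limma adjusted p-values given here in parentheses. Centring on the median ended ALDH3A1 (0.0776), XDH (0.218), CYB5A (0.645), POR (0.813), IDO1 (0.0568), AFMID (0.105), HSD17B14 (0.256) and TKT (0.447). Quantile normalization ended HSP90AA1 (0.0603), ALDH3A1 (0.101), POR (0.726), AFMID (0.054), HAAO (0.135), HSD17B1 (0.0712), HSD17B8 (0.0641) and HSD17B14 (0.695), and the authors' series table ended the same calls except that of HSD17B1 (0.0569 to 0.774). Normexp correction ended HSP90AB1 (0.59), XDH (0.113), CYB5A (0.0905), KYAT3 (0.203), HSD17B12 (0.363), TKT (0.0596) and ME1, which was then at -0.20 (0.427). The 11 calls that held under all 4 were those of NCOA2, which rose, and of BMAL1, PTGES3, GSTA1, CYB5R1, SELENBP1, AADAT, HSD17B4, TALDO1, TXN and MAFK, which fell. Their sizes still moved, with BMAL1 at -0.51 and GSTA1 at -0.63 after normexp correction.

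Leaving out 1 animal ended the calls of ALDH3A1 (K3, K8, K9, DE30 or DE31, limma adjusted p = 0.0918 to 0.109), HSP90AA1 (K3, K6, K8, K9 or DE31, 0.0509 to 0.0648), POR (any but K3, K10 or DE29, 0.0516 to 0.125), TKT (K3, K6, K9, DE29 or DE32, 0.0546 to 0.111), HSD17B8 (K6, K9 or DE32, 0.0597 to 0.0745) and HSD17B12 (K8, K9, DE30 or DE31, 0.0515 to 0.0765).

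Markers of cell types were counted when they passed the storage test over all animals. Of all tested probes, 31.2% passed higher and 23.3% lower. Endothelial markers passed higher for 11 of 12, with a list median of 0.80. Their summed linear signal was 17200 to 23800 in controls and 22300 to 30300 in treated animals at day 0, and 27600 to 76700 and 33700 to 75000 at day 14. Of 8 fibroblast markers 4 passed lower, with a list median of -0.91. Their sums were 32200 to 67000 and 28600 to 71900 at day 0, and 19900 to 96300 and 9790 to 42800 at day 14. Smooth muscle and pericyte markers passed higher for 5 of 8 (median 0.65). Their sums were 11300 to 16700 and 9530 to 18300 at day 0, and 17900 to 56000 and 12900 to 35200 at day 14. Lymphocyte markers passed higher for 3 of 5 (median 0.75) and erythrocyte markers for 3 of 4 (median 1.06). Of 11 skeletal muscle markers 4 passed higher and 2 lower, of 7 adipocyte markers 1 higher and 2 lower, and of 7 macrophage markers 1 lower. With slide as a block, storage calls among all probes fell from 8421 to 2272, and whether the marker calls hold then was not tested. The part of these cell types in the changes above was not tested.

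**Figure D5:**
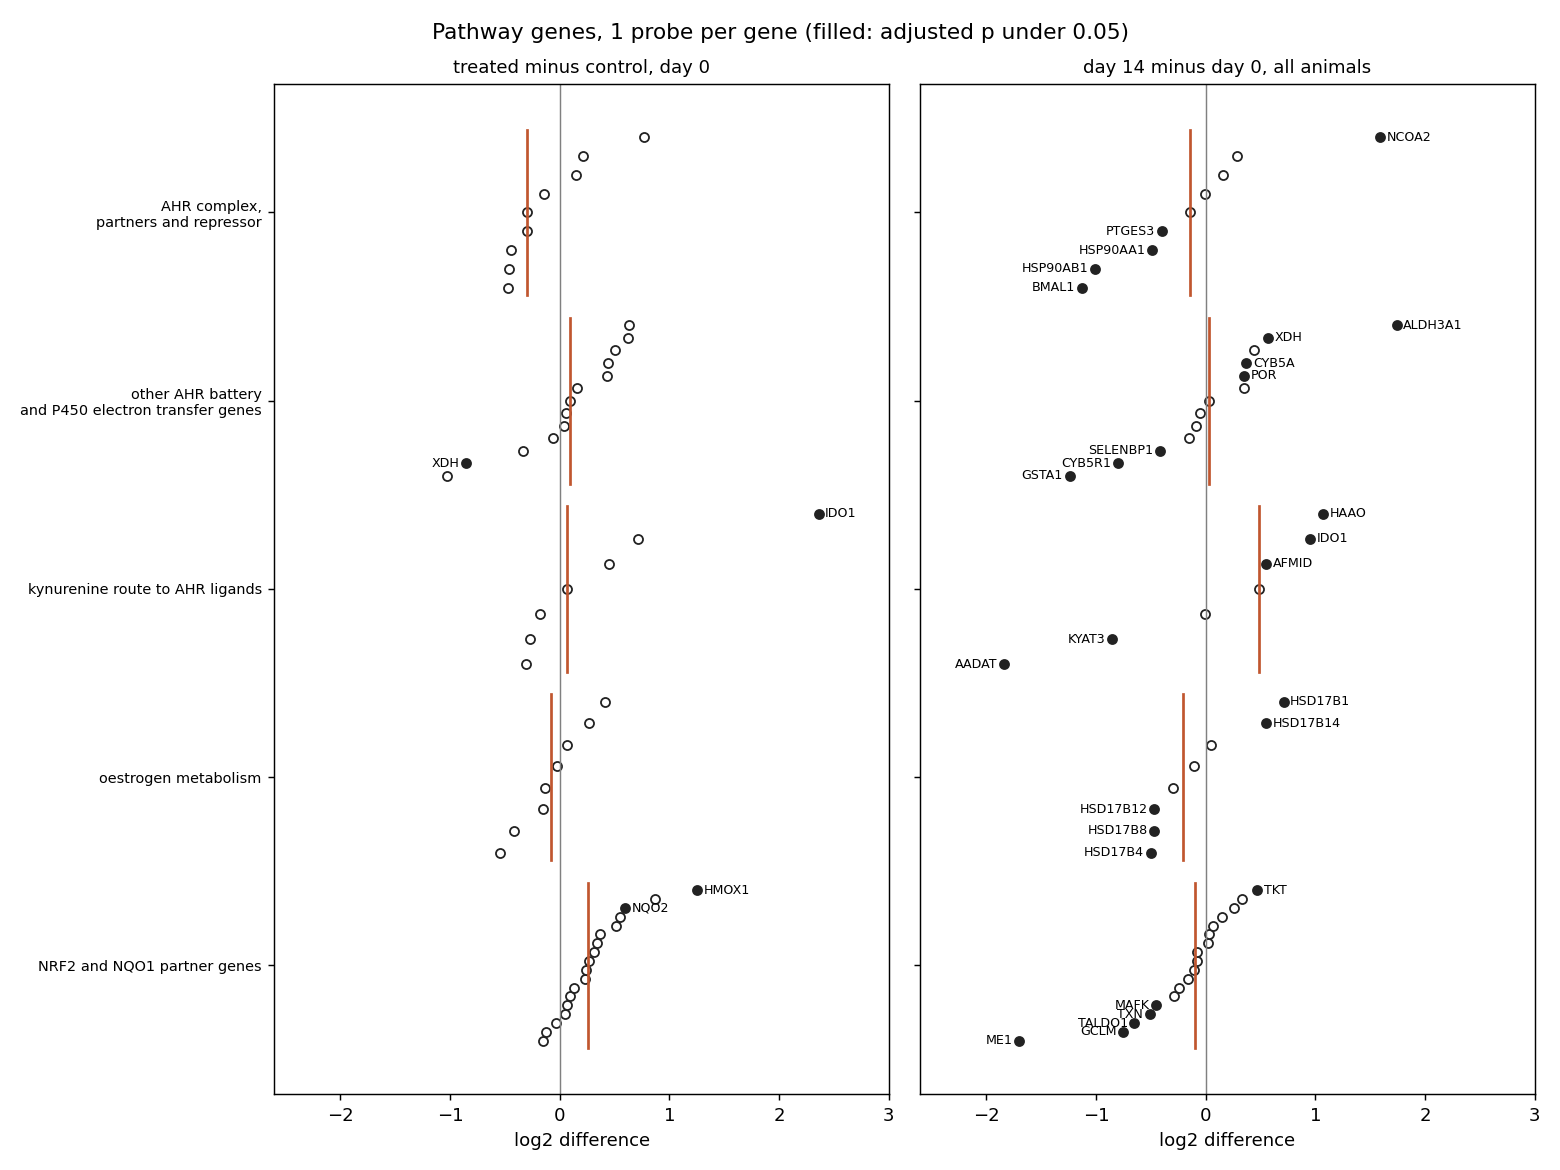
Log2 differences of the 55 tested genes of the 5 pathway lists, 1 point per gene, for treated minus control at day 0 and for day 14 minus day 0 over all animals; filled points passed limma's adjusted p of 0.05 and orange bars mark list medians. By treatment 4 genes passed, with IDO1 at 2.36 and XDH at -0.85, and by storage 28 passed, from AADAT at -1.84 to ALDH3A1 at 1.74.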

How the data were processed

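Total RNA of neck muscle was labelled with cyanine 3 and hybridised to 1-colour Agilent bovine arrays, per the labels' protocols. Signal intensity per spot was extracted with Feature Extraction 9.5.1.1, per the file headers, and the processed signal the authors deposited is already background-subtracted. A series table of intensity values on a linear scale, deposited by the authors as well, was also read; how it was normalized is not given in the sources used here; R 2.11.1 is named per the submitters' processing notes. That table correlated with each array's processed signal at r of at least 0.9986 and served as an alternative.

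Here, log2 processed signal was centred on each array's 75th percentile, and the mean of these percentiles was added back. Outlier spots (935 in all) and 1417 control spots were left out, and the 2 spots of a probe were averaged. A probe was tested when well above background on at least 5 of 20 arrays. R 4.3.3 with limma 3.58.1 (functions lmFit and eBayes) and statmod 1.5.0 gave the tests. P-values were adjusted by Benjamini-Hochberg over 15438 probes, at a threshold of 0.05; ± after a difference is its standard error. In simulated data with known changes, the changes that the fits called had the right sign, and the median fitted size was near the true one. The simulation held no slide, brightness or animal effects, so it cannot show how the fits behave with them. Precision is limited by the number of animals. Tables and figures used Python 3.11.15, pandas 2.3.3 and matplotlib 3.10.9.

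Groups come from sample titles and characteristics; a free-text field that gives other storage days was not used, and a title with a shortened animal name was read as DE31. The day 0 and day 14 arrays pair by animal, and their deviations from group means correlated at -0.15 to 0.28. The main fits did not use this pairing, and animal as a block was an alternative. Gene names were updated through a table of bovine genes (assembly ARS-UCD2.0), which named 16476 of 21475 probes. Lists used the tested probe of highest mean signal per gene and name at most the 4 genes of lowest p per list, direction and comparison that passed, or else the 1 of lowest p. A gene of the oestrogen metabolism list is not reported here and is in no count of the lists. The members and lists were chosen with earlier results of these data known.

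Of the 20 alternatives, 10 changed background correction, normalization, value source, filter, blocks or arrays in the fit, and 10 left out 1 animal each.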

Additional observations from a re-analysis of the deposited data

How the results depend on the processing

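The lower CYP1A1 signal in treated animals kept its sign under all 19 alternatives run for it, at -3.82 to -2.93 on day 0 and -4.37 to -2.35 on day 14 with all animals, and the cause of the smaller values was not tested. Few slides held both storage days, so with slide as a block a slide effect cannot be told apart from lost precision. By storage, called probes then numbered 197 in controls (6043 without the block), 0 in treated animals (4565) and 2272 over all animals (8421). By treatment they numbered 0 at day 14 (11) and 388 at day 0 (378). With animal as a replicate block they numbered 5480, 4001 and 8314 by storage and 0 for the interaction, and beside ALDH3A1 and POR no storage call of a named gene or member changed. With all arrays and animal as a random replicate block, treatment calls numbered 201 at day 0 and 107 at day 14, where XDH (adjusted p = 0.0293) and IDO1 (0.00888) then passed in limma, while at day 0 XDH (0.104) and NQO2 (0.191) did not. Normexp gave 8834 calls by storage in treated animals and 1 by treatment at day 14. With no filter on dim probes there were 8733 calls in treated animals and 13298 over all animals by storage and 230 by treatment at day 0. Only probes above background on all arrays gave 7 at day 14, and scan day as a block gave 3. Leaving out 1 animal gave 3240 to 6663 calls by storage in controls (the fewest without K9), 2432 to 5702 in treated animals (the fewest without DE32) and 7429 to 9062 over all, and 135 (without K9) to 311 at day 0 and 0 (without K3, K8, K9, K10, DE29 or DE30) to 12 at day 14 by treatment; the interaction stayed at 0.

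Some changes turned sign, and none of these passed except where a p is given. After normexp the brighter ARNT probe changed by 0.19 over all animals, 0.11 in controls and 0.28 in treated animals, CYP1B1 by 1.0 over all animals (limma adjusted p = 0.00165) and 0.85 in controls, HSP90AB1 by 0.13 and HSD17B12 by 0.17. The interaction after normexp was 0.14 for the dimmer AHR probe, 0.59 for CYP1A1 and 0.02 for TIPARP, and HSD17B1 by treatment at day 14 was 0.01. With slide as a block the CYP1A1 storage change was -0.12 over all, -0.51 in controls and -1.22 in treated animals, that of CYP1B1 was 1.04 over all and 0.50 in controls, and the TIPARP interaction was 0.06 (0.13 with scan day as a block). In treated animals the storage change of CYP1A1 was -0.06 with quantile normalization, -0.08 with median centring and -0.18 with scan day as a block, and that of CYP1B1 was -0.39, -0.26 and -0.11 and, in the authors' series table, -0.55, where its interaction was -0.03. POR changed by -0.06 with quantile normalization and -0.14 in that table. Without 1 animal each, CYP1A1 by storage ran from -0.08 to 0.79 in controls and from -0.05 to 0.61 in treated animals, and CYP1B1 from -0.29 to 0.12 over all, from -0.54 to 0.17 in controls and from -0.46 to 0.42 in treated animals. The interaction then ran from -0.32 to 0.03 and from -0.48 to 0.02 for the AHR probes, from -0.54 to 0.33 for CYP1A1, from -0.31 to 0.62 for CYP1B1 and from -0.27 to 0.11 for TIPARP. The cause of these turns was not tested. Dim signal limits CYP1B1 and the dimmer AHR and ARNT probes most.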
